A study of Mus musculus with 11 samples.

Results

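Osteoblast transcription factors were followed in whole distal tibiae of mice in which bone marrow adipocytes (BMAds) were depleted and of their controls. The 9 genes are Runx2, Sp7, Dlx3, Dlx5, Dlx6, Msx1, Msx2, Twist1 and Atf4, and they were taken by symbol from the 22600 genes of the merged count table. RNA came from 4 Control mice (genotype label BMAd-WT) and 7 BMAd-DTA mice, all of the C57BL6/SJL strain, 24 weeks old and fed ad libitum, and each mouse gave 1 library. All of these mice, controls included, carried Osterix-FLPo and FAC. Osterix is the protein of Sp7, so FLPo recombinase was driven by the endogenous Sp7 gene, with its cassette inserted at the 3' end of that gene. FAC is a Cre cassette placed in reverse in the endogenous Adipoq gene that FLPo turns into the coding direction. BMAd-DTA mice also carried ROSA-DTA, in which Cre removes a LoxP-flanked STOP and cells then make the diphtheria toxin A chain. Recombination is incomplete in this model, some BMAds remain in the distal tibia, and Sp7 is itself a modified locus in every mouse of both groups. The sex of the mice is not in the labels, and the study's legend for the figure with these RNA-Seq data names male mice in both groups.

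Osteoblasts arise from mesenchymal progenitors of bone and marrow under the control of RUNX2, a runt-domain factor without which no osteoblasts form. SP7, a zinc finger factor, is needed after RUNX2 for the step to matrix-forming osteoblasts. The homeodomain proteins of the DLX and MSX families act around these 2 factors during skeletal patterning and mineralization, TWIST1 is a basic helix-loop-helix protein that binds RUNX2 and holds back its activity, and ATF4 is a leucine zipper factor of the amino acid and endoplasmic reticulum stress response that osteoblasts need late, for matrix synthesis. ATF4 is controlled largely at translation, so its mRNA is only part of its activity.

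The members lie at 8 places in the genome, given here on GRCm38 from GENCODE M21. Runx2 spans chr17:44495987-44814797 on the minus strand, and Supt3 and 3 antisense genes, Runx2os1, Runx2os2 and Runx2os3, overlap it on the plus strand. Sp7 (chr15:102356606-102367182, minus) and Atf4 (chr15:80255184-80257541, plus) share a chromosome. Dlx5 (chr6:6877805-6882085, minus) and Dlx6 (chr6:6863334-6868568, plus) are neighbours, and Dlx6os1 overlaps Dlx6 on the minus strand. Dlx3 is at chr11:95120119-95125296 (plus), Msx1 at chr5:37820485-37824583 (minus), Msx2 at chr13:53466884-53473074 (minus) and Twist1 at chr12:33957671-33959829 (plus). All are protein coding.

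Promoter sequence, from 250 bases before to 50 bases after the RefSeq start site on GRCm38.p6, was at hand for 5 members: Runx2, Msx1, Msx2, Twist1 and Atf4. A pair of short motifs was searched on both strands, TGTGGT with its reverse complement ACCACA, which runt-domain factors bind, and the homeodomain motif TAATTA, which reads the same on both strands. The Runx2 and Msx2 windows are shown because they are the members with a match, marked in capitals. The windows are chr17:44814578-44814877 on the minus strand and chr13:53472731-53473030 on the minus strand.
Runx2 promoter: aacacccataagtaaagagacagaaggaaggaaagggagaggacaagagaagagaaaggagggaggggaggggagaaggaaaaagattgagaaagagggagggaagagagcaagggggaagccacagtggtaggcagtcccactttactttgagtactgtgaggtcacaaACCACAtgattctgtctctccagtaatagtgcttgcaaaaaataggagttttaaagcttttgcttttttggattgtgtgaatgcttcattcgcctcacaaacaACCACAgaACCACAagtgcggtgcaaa
Msx2 promoter: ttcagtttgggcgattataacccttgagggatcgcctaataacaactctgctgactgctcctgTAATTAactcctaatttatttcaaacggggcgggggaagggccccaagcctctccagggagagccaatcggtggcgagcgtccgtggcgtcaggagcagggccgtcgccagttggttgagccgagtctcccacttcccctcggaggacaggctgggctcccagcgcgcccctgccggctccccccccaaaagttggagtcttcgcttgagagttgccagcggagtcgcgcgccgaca
Runx2, the gene of a runt-domain factor, held 3 copies of ACCACA, 1 starting 80 bases before the start site and 2 starting 23 and 31 bases after it, none overlapping another. At least 1 copy stood in 16.8% of 32851 promoter windows of the same length, and 3 or more stood in 60 of them (0.183%). Msx2 held TAATTA 1 time, as 5.29% of the windows did. The Msx1, Twist1 and Atf4 windows held neither motif. These are letter matches and were not tested for binding.

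The libraries held 16969529 to 18637663 counted read pairs. Levels are given as CPM, the count per 1000000 read pairs after TMM scaling of library size, and levels of different genes are compared as CPM per kb of merged exon. Per kb, Atf4 stood well above the others in both groups, at 84.1 ± 9.52 in controls and 86.6 ± 3.46 in BMAd-DTA mice (mean ± SD, n = 4 and 7). In controls the order below it was Sp7 (12.2 ± 3.91), Runx2 (10.7 ± 0.920), Dlx3 (6.45 ± 2.02), Dlx5 (6.23 ± 0.247), Twist1 (4.44 ± 0.608), Dlx6 (2.40 ± 0.539), Msx1 (1.16 ± 0.222) and Msx2 (0.031 ± 0.031). The ranges of Sp7, Runx2, Dlx3 and Dlx5 overlapped with those of neighbours in that order. Within each mouse, Runx2 lay above Dlx3 in 4 of 4 controls and Dlx3 above Dlx5 in 1 of 4. The places of Sp7 against Runx2 and of Dlx3 against Dlx5 in controls are thus not set beyond the spread between mice. BMAd-DTA mice had the same order, but there Sp7 (26.5 ± 5.77 CPM per kb) lay above Runx2 (12.8 ± 1.83) in all 7 mice without overlap, whereas among controls it lay above Runx2 in 3 of 4. The ranges of Runx2, Dlx3, Dlx5 and Twist1 overlapped with those of neighbours in the BMAd-DTA order, although Dlx5 lay above Twist1 in all 7 mice.

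**Figure D1:**
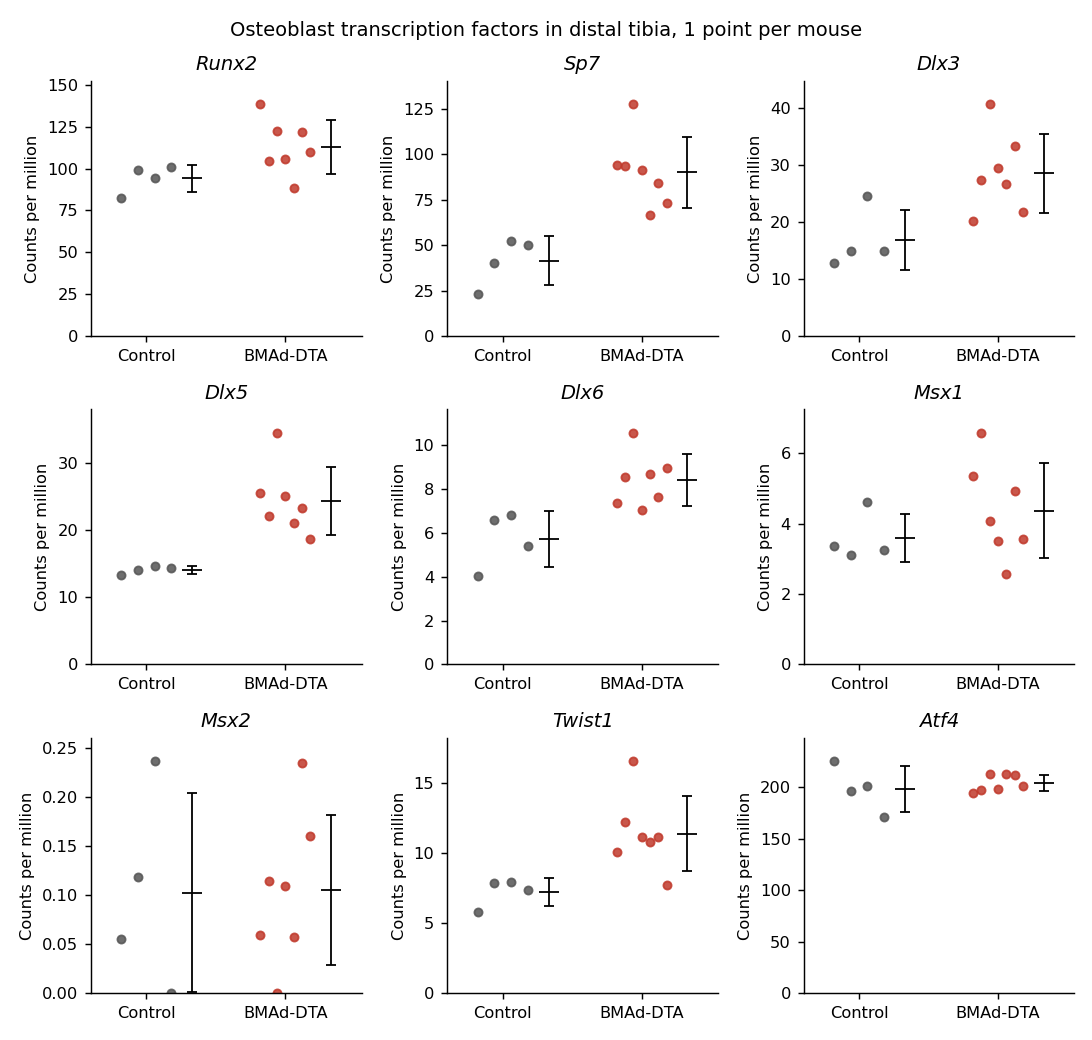
CPM (y axis, each panel on its own scale from 0) of the 9 members in each Control (grey) and BMAd-DTA (red) mouse, with the mean and SD of each group beside the points. Sp7, Dlx5 and Dlx6 have every BMAd-DTA mouse above every control, Atf4 has none above the highest control, and the Msx2 panel rests on 0 to 4 read pairs a library.

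Comparing BMAd-DTA mice with controls asks whether loss of BMAds is accompanied by a different level of the osteoblast program in the surrounding bone. Sp7 (fold 2.17), Dlx5 (1.73), Dlx3 (1.70), Twist1 (1.57) and Dlx6 (1.47) had the higher fitted folds, Runx2 and Msx1 lay at 1.20 and 1.22, and Atf4 lay at 1.03. Of 9 members, 8 passed the filter on low counts, and all 8 had a positive log2 fold change, with a median of 0.61 against 0.0018 over all 16496 genes tested. In edgeR's quasi-likelihood test no member had an adjusted p under 0.05, and 0.0727% of all genes tested were called higher. With the same test, 6 of 8 were higher at an unadjusted p under 0.05, against 7.89% of all genes, and 2 of 8 (Sp7 and Dlx5) passed an adjusted p of 0.1, against 2.55%. DESeq2, the tool the study used, called 5 of 8 higher at an adjusted p of 0.05 (Sp7, Dlx3, Dlx5, Dlx6 and Twist1), against 2.78% of the genes it adjusted. Every BMAd-DTA mouse exceeded every control in 3 of 8 (Sp7, Dlx5 and Dlx6), against 1.78% of all genes. In whole bone, more cells of the osteoblast lineage and more RNA per cell cannot be told apart.

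**Figure D2:**
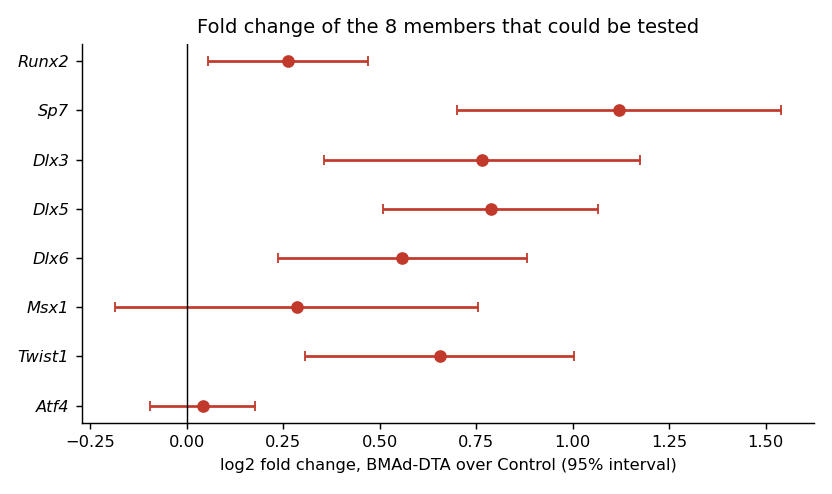
Log2 fold change of BMAd-DTA over Control mice (x axis) for the 8 members tested, with 95% intervals from a normal quantile and a standard error derived from the edgeR F statistic. The intervals of Runx2, Sp7, Dlx3, Dlx5, Dlx6 and Twist1 lie above 0 and those of Msx1 and Atf4 include 0; the intervals are not adjusted for the number of genes.

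Runx2, the factor that commits progenitors to the osteoblast lineage, was measured at 82.7, 99.0, 94.4 and 101 CPM in Control mice 1 to 4. In BMAd-DTA mice it ranged from 88.3 to 139 CPM with a median of 109.8. The groups overlapped through BMAd-DTA mouse 5, the lowest of its group, while the other 6 lay above every control. The means were 94.2 ± 8.13 and 113 ± 16.2 CPM, and the log2 fold change was 0.26 with a standard error (SE) of 0.11. That difference missed the threshold in edgeR (adjusted p = 0.233) and in DESeq2 (adjusted p = 0.176), although Runx2 had 1501 to 2351 read pairs a library. Its overlapping genes on the other strand gave log2 fold changes of 0.27 (SE 0.30) for Runx2os1 and 0.13 (SE 0.13) for Supt3, Runx2os2 held 1 to 22 read pairs a library and was not tested, and Runx2os3 had none.

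Sp7 had the largest fitted fold of the 8 members tested. The controls had 23.3, 40.0, 52.5 and 50.1 CPM, and the BMAd-DTA mice had a lowest value of 66.5, a median of 91.5 and a highest of 128 CPM. The groups did not overlap, and Control mouse 1 lay well below the other controls. Means of 41.5 ± 13.3 and 90.2 ± 19.6 CPM gave a log2 fold change of 1.12 (SE 0.21), with an adjusted p of 0.0675 in edgeR and 1.82e-05 in DESeq2. The edgeR adjusted p moved with single mice. Without Control mouse 3 the log2 fold change was 1.26 (adjusted p = 0.0390) and without Control mouse 4 it was 1.22 (adjusted p = 0.0487). Without Control mouse 1 it was 0.92 (adjusted p = 0.164). The unadjusted edgeR p of Sp7 was 1.60e-04 with all mice and 1.75e-04, 2.59e-04 and 1.77e-04 in those fits, so it fell in none of them. The number of all genes called was 292, 89 and 0 in those fits, against 13 with all mice. Since the Sp7 locus carries the FLPo cassette in both groups, the modification is shared by the mice compared, and its part in the level was not tested.

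The ratio of Sp7 to Runx2 within each mouse, in which library size cancels, differed between the groups. As log2 of the CPM ratio with a prior count of 2, it was -1.83, -1.30, -0.84 and -1.01 in the controls. BMAd-DTA mice ranged from -0.58 to 0.058, so that all 7 lay above every control. The difference in means was 0.90 (-1.25 ± 0.43 against -0.34 ± 0.24), with p = 0.00303 in a two-sided exact permutation test, the smallest p that 330 assignments of the mice can give, and an adjusted p of 0.0182 over the 6 ratios tested with that exact test. The 6 pairs were chosen with earlier results of these data known. Sp7 thus differed by more than Runx2. Leaving out any 1 mouse moved the difference between 0.71 and 1.04. With a control left out, the adjusted p was 0.05. It came from an exact permutation p of 0.00833, the smallest that design can give, adjusted over the 6 ratios.

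**Figure D3:**
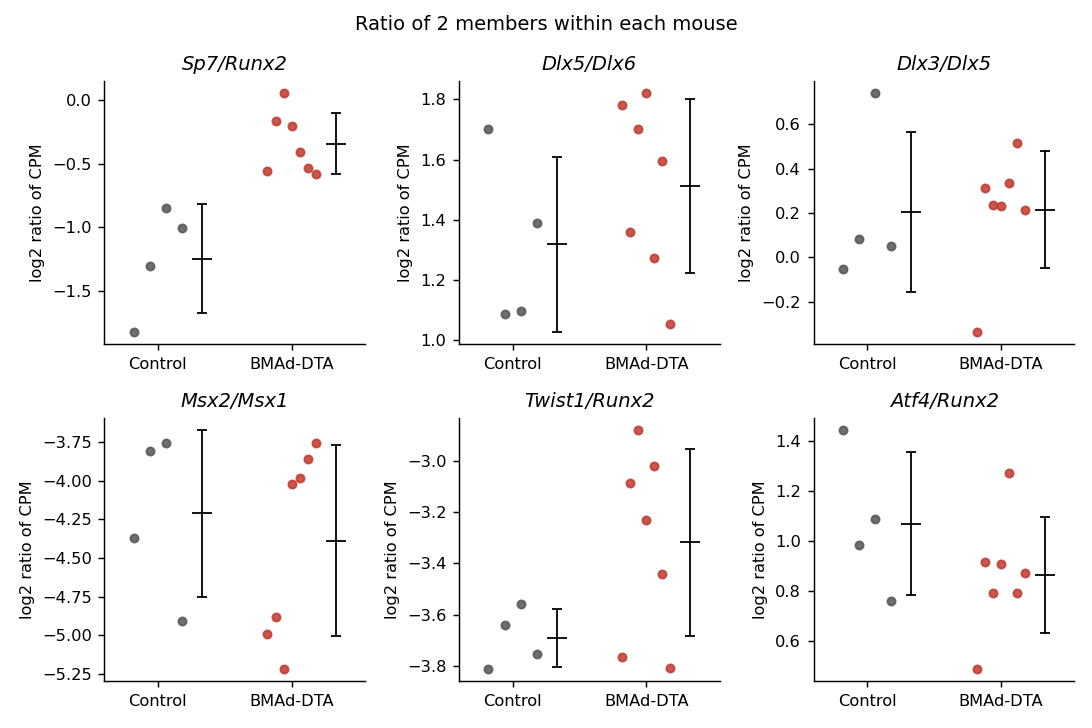
Log2 ratio of the CPM of 2 members within each mouse (y axis, each panel on its own scale, not starting at 0) for the 6 ratios tested, with the mean and SD of each group beside the points. The Sp7/Runx2 panel has all 7 BMAd-DTA mice above the highest control at -0.84, and the other 5 panels overlap.

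Among the homeodomain genes, Dlx5, which is induced early by bone morphogenetic protein (BMP) signals and can activate Runx2 and Sp7, was tightly grouped in controls. They had 13.3, 14.1, 14.7 and 14.3 CPM, and the BMAd-DTA mice ran from 18.7 through a median of 23.3 to 34.6 CPM. No BMAd-DTA mouse reached down to the control range. The control SD was 3.96% of the mean, below the 6.31% that counting error alone gives at that depth, and it was 20.9% in BMAd-DTA mice. Means were 14.1 ± 0.558 and 24.4 ± 5.08 CPM, with a log2 fold change of 0.79 (SE 0.14), an adjusted p of 0.0663 in edgeR and 6.49e-05 in DESeq2. Without Control mouse 3, BMAd-DTA mouse 3 or BMAd-DTA mouse 7 the edgeR adjusted p fell under 0.05, at 0.0399, 0.0463 and 0.0391. The unadjusted edgeR p of Dlx5 was 9.16e-05 with all mice and 3.32e-04, 1.75e-05 and 3.34e-05 in those fits. It was thus higher without Control mouse 3, in a fit that called 292 of all genes, against 13 with all mice.

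Dlx6, the neighbour of Dlx5 and its partner in jaw and limb patterning, had 4.02, 6.60, 6.80 and 5.39 CPM in controls. BMAd-DTA mice had 7.05 to 10.6 CPM with a median of 8.54, and the groups did not overlap. Its log2 fold change was 0.56 (SE 0.16), with an adjusted p of 0.119 in edgeR and 0.0296 in DESeq2. Dlx6os1, the antisense gene over Dlx6, had a log2 fold change of -0.070 (SE 0.19, edgeR adjusted p = 0.901) at 2.94 and 2.80 CPM. Counting without regard to strand changed the number of Dlx6 read pairs by -21.3% (from 1442 to 1135 over all libraries) and that of any other member by under 1%. The Dlx5 to Dlx6 ratio gave a difference of 0.19 (exact permutation p = 0.315, adjusted p = 0.473), so a different response of the neighbours was not detected. It was 0.32 without Control mouse 1, and 0.12 without Control mouse 2 or without Control mouse 3.

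Dlx3, known for tooth, hair and bone mineralization, was at 12.8, 15.0, 24.6 and 14.8 CPM in controls and at 20.2 to 40.7 CPM, median 27.5, in BMAd-DTA mice. Control mouse 3 stood within the BMAd-DTA range, and 5 of 7 BMAd-DTA mice exceeded it. The log2 fold change was 0.76 (SE 0.21), with an adjusted p of 0.106 in edgeR and 0.00863 in DESeq2. Without Control mouse 3 it was 1.01 with an edgeR adjusted p of 0.0393. The Dlx3 to Dlx5 ratio had nearly equal group means, a difference of 0.010 (exact permutation p = 0.936), and its sign turned in 6 of the 11 fits that left out a mouse. Dlx4, the neighbour of Dlx3, had 1.02 ± 0.472 and 1.57 ± 0.607 CPM and a log2 fold change of 0.63 (SE 0.36, edgeR adjusted p = 0.417).

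The Msx genes, homeodomain repressors best known from skull and tooth development, had few read pairs. Msx1 had 3.36, 3.12, 4.61 and 3.27 CPM in controls and 2.58 to 6.59 CPM, median 4.09, in BMAd-DTA mice. The ranges overlapped, with 3 of 7 above every control, and the log2 fold change was 0.28 (SE 0.24, 95% interval -0.19 to 0.75, edgeR adjusted p = 0.609). It was 0.16 without BMAd-DTA mouse 2 and 0.43 without Control mouse 3. At 45 to 115 read pairs a library, counting error was 12.5% of the control mean, and a change of the size seen in Dlx6 lies inside the interval. Msx2 had 20 read pairs in all 11 libraries together, 0 to 4 in each, and did not pass the filter on low counts. In edgeR without that filter its log2 fold change was 0.059 (SE 0.88, edgeR adjusted p = 0.988). No difference between the groups could be detected at this depth. The Msx2 to Msx1 ratio, which at these counts leans on the prior count, gave a difference of -0.18 (exact permutation p = 0.655, adjusted p = 0.785). With a prior count of 0.5 it was -0.060, and leaving out a mouse moved it from -0.41 (without Control mouse 4) to -0.026 (without Control mouse 3).

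Twist1 encodes the factor that restrains RUNX2 in progenitors. Controls had 5.79, 7.83, 7.92 and 7.36 CPM, and BMAd-DTA mice had 7.73 to 16.6 CPM with a median of 11.1. BMAd-DTA mouse 7 fell within the control range, and the other 6 lay above it. The means were 7.22 ± 0.989 and 11.4 ± 2.68 CPM and the log2 fold change was 0.66 (SE 0.18), with an adjusted p of 0.106 in edgeR and 0.0156 in DESeq2. Its ratio to Runx2 was higher by 0.37 in BMAd-DTA mice (exact permutation p = 0.0970, adjusted p = 0.291), with 5 of 7 above every control.

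Atf4, the stress-response factor, had the fitted fold nearest to 1 of the 8 tested. Controls had 226, 196, 201 and 171 CPM, and BMAd-DTA mice had 194 to 213 CPM with a median of 201, inside the control range. The log2 fold change was 0.041 (SE 0.070) with a 95% interval from -0.095 to 0.18, at 3294 to 4092 read pairs a library, and its sign turned to -0.024 without Control mouse 4. The Atf4 to Runx2 ratio was lower by a difference of -0.21 in BMAd-DTA mice, which the exact permutation test did not separate (p = 0.221, adjusted p = 0.442). That difference was -0.081 without Control mouse 1 and -0.31 without Control mouse 4.

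Some mice stood high or low for many members at the same time. Control mouse 1 was the lowest of the 11 for Runx2, Sp7, Dlx3, Dlx5, Dlx6 and Twist1 and the highest for Atf4, and BMAd-DTA mouse 3 was the highest for Sp7, Dlx3, Dlx5, Dlx6 and Twist1. After the group means were subtracted, Pearson's r over the 11 libraries was 0.82 between Dlx5 and Twist1, 0.76 between Dlx3 and Twist1, 0.73 between Sp7 and Twist1, 0.66 between Sp7 and Dlx5 and 0.61 between Runx2 and Sp7. It was 0.29 between the neighbours Dlx5 and Dlx6, 0.052 between Runx2 and Dlx3, and -0.56 between Sp7 and Atf4. All members of a mouse were read from the same library, and for Dlx5 and Twist1 Spearman's rho was 0.46. Over the 12972 genes whose mean count was 50 or more, the 5 that followed Sp7 most closely within the groups were Panx3 (r = 0.97, rho = 0.93), Fkbp10 (0.96, 0.87), Msi1 (0.95, 0.95), Smpd3 (0.93, 0.83) and Spats2 (0.93, 0.94). Panx3 encodes a channel of osteoblasts and hypertrophic chondrocytes and Fkbp10 a collagen chaperone, and their log2 fold changes were 1.77 and 0.92. The 5 closest to Runx2 were Fes (r = 0.92, rho = 0.87), Surf4 (0.91, 0.91), Ncdn (0.91, 0.88), Trmt44 (0.91, 0.82) and the endothelial receptor kinase gene Acvrl1 (0.90, 0.77), with log2 fold changes from -0.23 for Acvrl1 to 0.24 for Ncdn. The gene lists nearest to Runx2 and Sp7 had no gene in common, but lists of 5 out of 12972 genes cannot show whether Runx2 and Sp7 differ. These r values are the highest of 12972 over 11 libraries and are given as a ranking.

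Bone matrix and signalling genes that RUNX2 and SP7 are known to act on were listed. All 23 had a positive log2 fold change, with a median of 0.87. In edgeR 20 were higher at an unadjusted p under 0.05, against 7.89% of all genes. The other 3 were Spp1, Tnfrsf11b and Tnfsf11. EdgeR called 1 higher, against 0.0727% of all genes, and DESeq2 called 15 higher, against 2.78% of the genes it adjusted. Every BMAd-DTA mouse exceeded every control in 8, against 1.78% of all genes. The gene that edgeR called was Alpl, the alkaline phosphatase that frees phosphate for mineral, which rose from 141 ± 37.0 to 315 ± 55.2 CPM (log2 fold change 1.16, SE 0.17, edgeR adjusted p = 0.0326). At the upper end were Col1a1, the main collagen chain of bone, at 4720 ± 2332 and 12016 ± 4066 CPM (log2 fold change 1.35, SE 0.39, edgeR adjusted p = 0.115), and Ifitm5, an osteoblast membrane protein, at 3.36 ± 0.759 and 8.44 ± 2.86 CPM (1.33, SE 0.25, edgeR adjusted p = 0.0675). At the lower end were Tnfrsf11b and Tnfsf11, which encode osteoprotegerin and RANKL, with log2 fold changes of 0.15 (SE 0.13) and 0.35 (SE 0.25). Dmp1, Mepe, Phex and Sost of this list are also osteocyte markers.

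Cofactors and modulators of RUNX2 were mixed in direction. Of 28 genes, 21 were higher and 7 lower with a median of 0.073. DESeq2 called 4 higher, against 2.78% of the genes it adjusted, and edgeR called none. At an unadjusted p under 0.05 in edgeR, 7 were higher and 1 lower, against 7.89% and 8.53% of all genes. Hand2, a helix-loop-helix protein that binds RUNX2, was at 0.663 ± 0.261 and 1.82 ± 0.738 CPM (log2 fold change 1.44, SE 0.37, edgeR adjusted p = 0.0909), and the Notch target Hey1 was at 2.43 ± 0.296 and 4.39 ± 1.32 CPM (0.86, SE 0.23, adjusted p = 0.0992). Twist2, a relative of Twist1, was at the lower end, with a log2 fold change of -0.36 (SE 0.36).

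Of 38 other transcription factors of the skeleton, 33 were tested, 27 were higher and 6 lower, and the median was 0.19. DESeq2 called 5 higher and 1 lower, against 2.78% and 2.64% of all genes it adjusted. EdgeR called none of them, with 14 higher and 1 lower at an unadjusted p under 0.05, against 7.89% and 8.53% of all genes. Fosl1, an AP-1 member of bone matrix synthesis, was at 0.320 ± 0.125 and 0.873 ± 0.226 CPM (log2 fold change 1.42, SE 0.35, edgeR adjusted p = 0.0810), and Creb3l1, which controls collagen secretion in osteoblasts, was at 35.7 ± 12.6 and 73.7 ± 19.9 CPM (1.04, SE 0.24, edgeR adjusted p = 0.0724). Sox6 and Sox5, factors of cartilage of which Sox6 also acts in red cells, had the smallest log2 fold changes of the list, -0.63 (SE 0.18, edgeR adjusted p = 0.113) and -0.27 (SE 0.15, adjusted p = 0.394).

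BMP signals lie upstream of Dlx5 and Runx2. Of 19 genes of that pathway tested, 15 were higher and 4 lower with a median of 0.19. DESeq2 called 4 higher, against 2.78% of the genes it adjusted, and edgeR called none. At an unadjusted p under 0.05 in edgeR, 8 were higher and 0 lower, against 7.89% and 8.53% of all genes. Bmp7, a ligand, was at 6.80 ± 1.15 and 13.3 ± 3.22 CPM (log2 fold change 0.97, SE 0.18, edgeR adjusted p = 0.0675) with no overlap between the groups, and Id3, a direct target, at 37.2 ± 8.80 and 61.4 ± 8.13 CPM (0.73, SE 0.14, adjusted p = 0.0675). Grem1, a BMP antagonist, and Bmp6 had log2 fold changes of -0.61 (SE 0.31) and -0.20 (SE 0.16).

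Genes downstream of ATF4 were also mixed in direction. Of 32 ATF4 targets tested, 13 were higher and 19 lower, and the median was -0.044. At an unadjusted p under 0.05 in edgeR there were 4 higher and 7 lower, against 7.89% and 8.53% of all genes. EdgeR called 0 of them. DESeq2 called 1 higher and 2 lower, against 2.78% and 2.64% of all genes it adjusted, and Asns (DESeq2 adjusted p = 0.00399) was among the lower. Asns, the asparagine synthetase, was at 59.5 ± 11.04 and 43.1 ± 3.57 CPM (log2 fold change -0.47, SE 0.10, edgeR adjusted p = 0.0720), and Trib3 had -0.49 (SE 0.22). Pycr1 of proline synthesis and the stress cytokine Gdf15 were at the upper end, at 0.63 (SE 0.21) and 0.78 (SE 0.32). Among 11 regulators of ATF4 translation and stability, 9 were lower and 2 higher with a median of -0.12, and 5 were lower at an unadjusted p under 0.05 in edgeR. EdgeR called 0 of these regulators, and DESeq2 called 1 lower, Btrc (DESeq2 adjusted p = 0.0389). Ppp1r15a, a subunit of the phosphatase for eIF2alpha, had -0.49 (SE 0.18, edgeR adjusted p = 0.202), and Btrc, an ATF4 ubiquitin ligase subunit, -0.38 (SE 0.11, adjusted p = 0.120), against 0.13 (SE 0.11) for the kinase gene Eif2ak3 and 0.080 (SE 0.084) for Nf1.

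**Figure D4:**
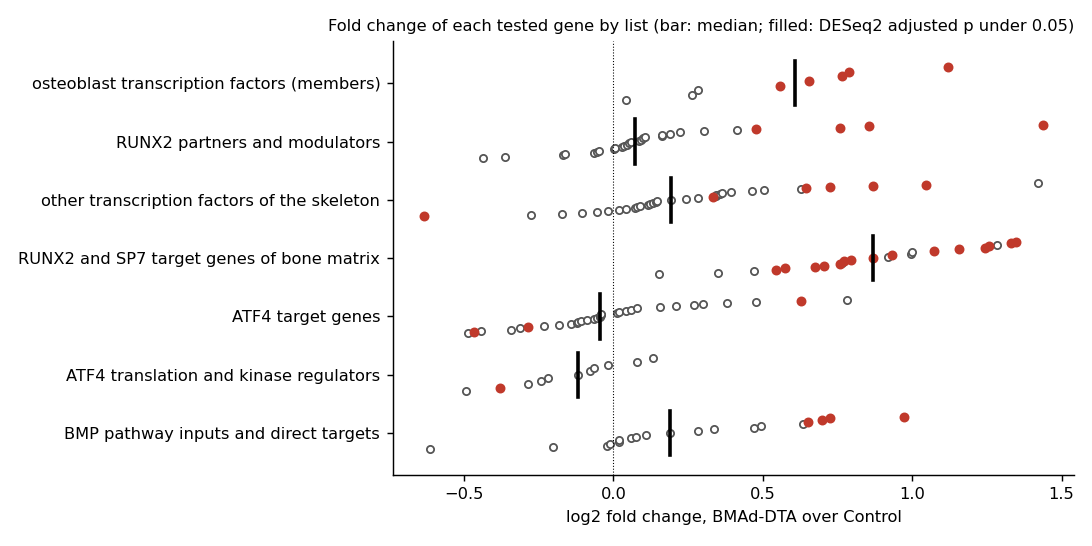
Log2 fold change of BMAd-DTA over Control mice (x axis) of each tested gene in the 7 lists, with a bar at the median and filled points where the DESeq2 adjusted p was under 0.05. The medians run from -0.12 for the regulators of ATF4 to 0.61 for the 8 members and 0.87 for the RUNX2 and SP7 targets; a few genes stand in more than 1 list.

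The labelled tissue, bone, was checked against 6 osteocyte markers, of which Dmp1, Sost, Mepe, Phex and Pdpn had reads in every mouse and Fgf23 had none in 1 BMAd-DTA mouse. The summed level of these markers was 328 to 434 CPM in controls and 469 to 827 CPM in BMAd-DTA mice. In edgeR 5 of 6 were higher at an unadjusted p under 0.05, and Fgf23 had a log2 fold change of -1.42 (SE 0.67). Of all genes, 7.89% were higher at that p, the share for the chondrocyte and osteoclast counts as well. Chondrocyte markers (8 of 10 tested, all 8 with positive fold changes and 2 at an unadjusted p under 0.05) summed to 742 to 1068 and 1080 to 1355 CPM, and osteoclast markers (8 of 8 positive, 5 at an unadjusted p under 0.05, median log2 fold change 1.04) to 1335 to 2881 and 1808 to 4665 CPM. The groups did not overlap in the osteocyte and chondrocyte sums and overlapped in the osteoclast sum. Of the chondrocyte markers Col2a1, the main collagen of cartilage, was at 217 and 468 CPM, and Acan (48.2 and 54.8) and Comp (277 and 301 CPM) had unadjusted p of 0.345 and 0.457 in edgeR. Adipocyte markers had negative fold changes in 10 of 10 and summed to 1140 to 1852 and 495 to 1373 CPM, which overlapped. In edgeR 5 of the 10 were lower at an unadjusted p under 0.05, against 8.53% of all genes. EdgeR called 1 of them lower, the 1 gene called lower among all 16496 tested. Skeletal muscle markers (14 of 15 tested, all 14 negative) ran from 21.2 to 1470 CPM in controls and from 21.4 to 1158 CPM in BMAd-DTA mice, highest in Control mouse 3. With a muscle score in the fit, the log2 fold change was 1.07 for Sp7 and 0.75 for Dlx5. The edgeR adjusted p was 0.128 for both, against 0.0675 and 0.0663 without the score. Their unadjusted edgeR p was 3.57e-04 and 2.56e-04 with the score, against 1.60e-04 and 9.16e-05 without it. Over all genes, 26 had an adjusted p under 0.1 with the score and 421 without it. Sums for tendon (120 to 164 and 123 to 261 CPM), marrow stroma (3286 to 4964 and 3256 to 5272), neutrophils (21583 to 26700 and 18320 to 25842), red cells (13153 to 29806 and 17544 to 31142), B lymphocytes (399 to 910.0 and 624 to 1517) and endothelium (595 to 628 and 464 to 660.0) overlapped between the groups. No marker gene was at 0 in every library. Apart from that fit for muscle, the part of these cells in the levels of the members was not tested.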

How the data were processed

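Strand-specific, paired-end libraries of 11 distal tibiae were sequenced. The authors checked reads with FastQC 0.11.9, used STAR with its defaults for alignment to mm10, and deposited counts of read pairs per gene for each library and in a merged table, which equals the read-strand counts of all its 22600 genes. The annotation release is not given in the sources used here. Symbols of the members are those of the merged table, and positions and exon lengths came from GENCODE M21 (99.89% of gene IDs matched). The deposited counts were analysed as they were.

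The 9 members, the pathway lists and the marker lists were chosen with earlier results of these data known, so in the fit across genes no p is adjusted over a list alone. The p-values of the 6 ratios between members are adjusted over those 6. Genes were filtered by filterByExpr (16496 kept), scaled by TMM and tested with edgeR 4.0.16 (quasi-likelihood, genotype as the only term, two-sided, Benjamini-Hochberg over all genes tested, threshold 0.05), in R 4.3.3. DESeq2 1.42.0, which the authors used with genotype as the main effect, and limma 3.58.1 were alternatives. SE is a standard error of the log2 fold change derived from the edgeR F statistic. Ratios of members were taken on log2 CPM (prior count 2) and compared by the exact permutation test over mice. All scripts with tests were tested on simulated data.

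All 9 members are named. For each pathway list, the text names 2 genes from either end of the log2 fold changes, and every gene at an edgeR adjusted p under 0.05; marker lists are given as counts and sums. 1 gene that this rule names is not reported here. Likeness to Runx2 and Sp7 is Pearson's r of log2 CPM after subtracting group means. Replicate numbers follow the order of deposit and pair no mice. Per the labels and the study's methods, each library is 1 mouse.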

Additional observations from a re-analysis of the deposited data

Results flagged for a closer look

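Of 28 group values examined (8 members and 6 ratios in each group), 3 had a mouse far from the others of its group by Dixon's criterion, where chance gives about 1 in 20. Msx1 was 4.61 CPM in Control mouse 3, against 3.12 to 3.36 CPM in the other controls. The log2 ratio of Dlx3 to Dlx5 was 0.74 in Control mouse 3, against -0.054 to 0.081 in the other controls, and -0.34 in BMAd-DTA mouse 1, against 0.22 to 0.51 in the other BMAd-DTA mice. Control mouse 3 also had the highest summed level of skeletal muscle markers, 1470 CPM. The part of that tissue in these values was not tested.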

How the results depend on the processing

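The number of all genes called in edgeR, 13, was 845 in DESeq2, 20 in limma-voom, 238 with sample quality weights, 32 with robust estimation, 20 with DESeq2 size factors, 3 with a muscle score in the fit and 421 at an adjusted p under 0.1. Leaving out single mice gave 0 to 292 calls: 292 without Control mouse 3, 89 without Control mouse 4, 8 and 3 without BMAd-DTA mice 3 and 4, and 0 without Control mouse 1 or 2 or BMAd-DTA mouse 1 or 6. The number of members called, 0, was 5 in DESeq2, 2 with quality weights (Sp7 and Dlx5), 1 with robust estimation (Dlx5) and 2 at an adjusted p under 0.1. It was 0 to 3 with a mouse left out: 3 without Control mouse 3 and 1 without Control mouse 4, BMAd-DTA mouse 3 or BMAd-DTA mouse 7. The cause of these differences was not tested. Scaling, filters and strand moved no member across the threshold. The log2 fold changes of the other 7 members tested kept their sign in all fits, and that of Atf4 ranged from -0.024 to 0.11 with a mouse left out. The Sp7 to Runx2 difference was 0.71 to 1.04 with a mouse left out and kept its sign. The Dlx3 to Dlx5 difference ran from -0.076 to 0.19 and turned its sign in 6 of those 11 fits. No paired analysis was possible because the replicate numbers follow the order of deposit. Depth limits Msx1 and also Msx2, which with 20 read pairs in all did not pass the filter on low counts.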
